A study of Mus musculus with 2 samples.

Results

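The genes described here are 9 genes whose products work with, or gave rise to, the leukemic fusion of the methyltransferase MLL with AF9: *Kmt2a*, *Mllt3*, *Mllt1*, *Dot1l*, *Men1*, *Psip1*, *Aff4*, *Aff1* and *Cdk9*. They were chosen by symbol, and all 9 were found among the 27998 genes of the deposited table. Transcripts of single leukemia cells, from mouse bone marrow transformed with *MLL-AF9*, were counted in droplets in 2 libraries, 1 labelled *Kat2a* WT and 1 labelled *Kat2a* KO. *Kat2a* encodes a histone acetyltransferase, and the study asked how its loss changes transcription in leukemia cells.

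Donor mice of both genotypes were *Kat2a* Flox/Flox and both received pIpC, which switches on the interferon-responsive *Mx1* promoter; they differed in the Cre transgene, which was *Mx1-Cre* -/- for WT and *Mx1-Cre* +/- for KO. Marrow was taken 4 to 6 weeks later, depleted of lineage-positive cells, transduced with a retrovirus carrying *MLL-AF9* and a YFP reporter, and grown in lethally irradiated recipients until terminal leukemia. Leukemias from 5 (WT) and 4 (KO) recipients were pooled by genotype, and live YFP-positive cells were sorted for 1 library of each. With 1 library per genotype there is no replicate, so no difference below has a test, and each interval covers counting error only, at 95% confidence.

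MLL, the product of *Kmt2a*, is a histone methyltransferase held on its target genes by menin (*Men1*) and by the chromatin reader LEDGF (*Psip1*). In leukemic fusions the carboxy-terminal part of MLL is replaced by a partner such as AF9 (*Mllt3*), ENL (*Mllt1*) or AF4 (*Aff1*), proteins that normally recruit either the histone methyltransferase DOT1L or the super elongation complex. That complex is built on AFF scaffolds and carries the kinase CDK9, which releases paused RNA polymerase II.

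The MLL protein keeps, in its fusions, a CXXC domain that binds unmethylated CG dinucleotides. The RefSeq promoters (GRCm38.p6, 250 bases before to 50 after the start) of the member with the largest well-counted difference between libraries, *Kmt2a*, and of the most counted member, *Cdk9*, are shown for that reason, 5′ to 3′ with every CG in capitals.
*Kmt2a*, chr9:44881240-44881539, minus strand: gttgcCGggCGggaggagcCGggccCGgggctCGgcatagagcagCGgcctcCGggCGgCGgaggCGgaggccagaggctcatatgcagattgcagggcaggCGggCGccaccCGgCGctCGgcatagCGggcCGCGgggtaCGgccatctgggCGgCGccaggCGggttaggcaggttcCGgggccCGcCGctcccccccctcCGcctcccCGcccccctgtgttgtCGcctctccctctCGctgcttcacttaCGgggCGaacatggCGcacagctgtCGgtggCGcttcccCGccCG
*Cdk9*, chr2:32712735-32713034, minus strand: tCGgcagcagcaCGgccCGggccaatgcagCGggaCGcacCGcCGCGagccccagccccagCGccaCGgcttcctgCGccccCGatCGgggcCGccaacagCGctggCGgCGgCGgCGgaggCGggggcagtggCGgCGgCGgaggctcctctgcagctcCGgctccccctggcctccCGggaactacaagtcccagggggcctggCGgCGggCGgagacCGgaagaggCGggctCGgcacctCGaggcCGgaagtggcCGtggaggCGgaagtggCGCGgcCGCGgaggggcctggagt
The *Kmt2a* promoter held 36 CG, a number reached by 6.02% of 27025 mouse promoters of the same length. The *Cdk9* promoter held 39, reached by 4.29%. The median promoter held 7. A promoter was matched for 8 of the 9 genes, and the other matched ones ranged from 11 CG in *Men1* to 49 in *Dot1l*. These counts describe the sequence only, and binding was not measured.

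A filter of 500 detected genes per cell left 3866 of 4069 WT cells and 3545 of 4240 KO cells. The WT library was deeper, with a median of 2588.5 unique molecular identifiers (UMIs, each a counted RNA molecule) per kept cell against 1884, and 11669427 UMIs in all against 7920256. Levels are given in CPM, the UMIs of a gene for every 1000000 UMIs of the library or cluster. The libraries shared 28 barcode sequences, found in 23 and 22 kept cells. *Kat2a* itself was at 12.2 CPM in WT and 95.8 CPM in KO, against the direction of the labels. The last exon of *Kat2a* remains after excision and the assay counts 3′ ends, so these reads do not check the genotype, and WT and KO below stand for the libraries labelled so. Of the marker lists for other cells, the 3 megakaryocyte genes summed to 9.08 CPM in WT and 105 in KO. The 8 erythroid genes summed to 279 and 583, and the 5 mast cell or basophil genes to 94.7 and 197. The erythroid sums, 3253 UMIs in WT and 4618 in KO, rested on few cells. Over both libraries, 6385 of these UMIs lay in 12 cells that also held *Mllt3*. Kept cells without *Mllt3* were at 76.2 CPM. The 5 T or NK cell genes summed to 197 and 319 CPM and the 6 B cell genes to 54.3 and 79.0. The T or NK list held *Nkg7*, a leading gene of the primary granule progenitor-like cluster 7 described below. The list was highest in that cluster, at 621 CPM, so its sum does not measure T or NK cells. The granulocyte, monocyte or macrophage and primary granule progenitor markers that define these cells were present in both libraries.

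Of the 9 genes, *Kmt2a* showed the largest difference, at a 2.03-fold lower level in KO, and *Psip1* and *Cdk9* were modestly higher there. The other 6 genes had intervals that included no difference. The 9 genes summed to 209 CPM (201 to 217) in WT and 203 CPM (193 to 213) in KO, a log2 ratio of -0.04 (-0.13 to 0.05). Without *Kmt2a*, the other 8 summed to 156 (149 to 163) and 177 (168 to 187), a log2 ratio of 0.18 (0.08 to 0.28). At a threshold of 1.5-fold, 9.9% of the 7861 genes with 100 or more UMIs over both libraries were lower in KO and 5.43% were higher. Of the 9 genes, 6 reached 100 UMIs. Of those 6, 1 (*Kmt2a*) was lower past that threshold and 0 were higher. *Mllt1*, among the 3 genes with fewer UMIs, was 1.68-fold lower.

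**Figure D1:**
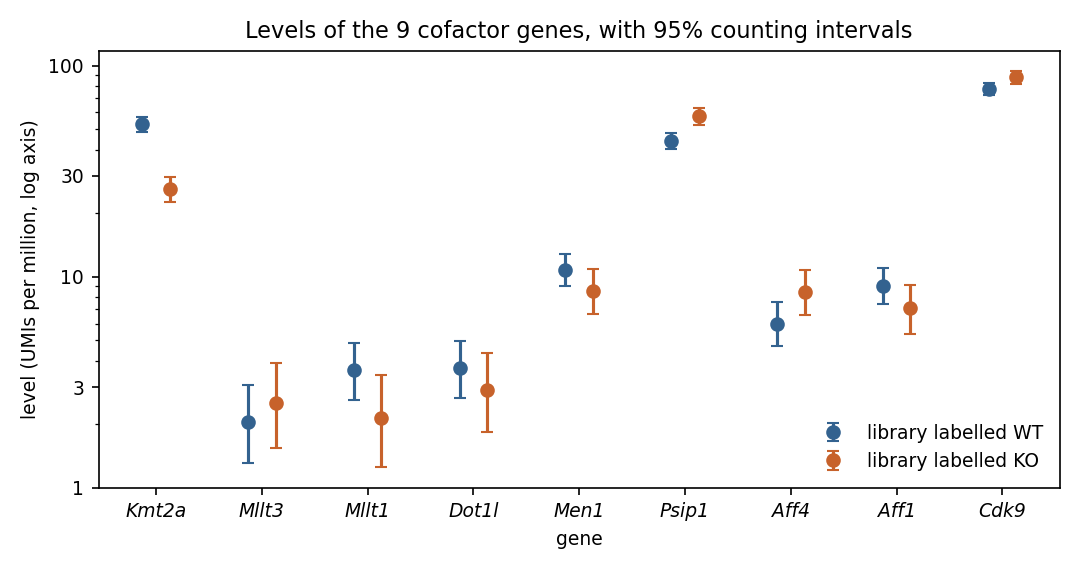
Level of each of the 9 genes in CPM (log axis) in WT (blue) and KO (orange), 1 library each, where bars are 95% Poisson intervals of the count. The intervals are apart for *Kmt2a* (52.7 and 26.0) and *Psip1* (43.8 and 57.7) and overlap for the others.

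*Kmt2a* (chromosome 9, 44803355 to 44881296, minus strand, mm10; 36 exons in its longest GENCODE transcript) encodes MLL itself. It was counted 615 times in WT and 206 times in KO, or 52.7 (48.6 to 57.0) and 26.0 (22.6 to 29.8) CPM. The log2 ratio was -1.02 (-1.25 to -0.79), and 3.05% of the 7861 tested genes had a lower one. *Kmt2a* was detected in 12.8% of WT and 4.77% of KO cells, and in 4.68% and 2.09% once each cell was thinned to 1000 UMIs to equalise depth. The share was lower in KO at equal depth too. A single KO cell held 11 of the 206 UMIs, and the 10 highest cells of each library held 6.67% (WT) and 17.5% (KO) of the gene's UMIs. Leaving these cells out gave a log2 ratio of -1.19.

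The longest *Kmt2a* transcript spans 16470 bases. Across all tested genes, those with long transcripts were more often lower in KO. Their median log2 ratio was 0.10 for 2090 genes under 2000 bases and -0.40 for the 67 genes of 12000 bases or more. Of those 67, 11 had a lower ratio than *Kmt2a*. Among the 1443 genes with 500 to 1000 UMIs, the class *Kmt2a* falls in by count, 25 did. *Kmt2a* was therefore below the median of genes of like length and of like count. The part of transcript length in the *Kmt2a* difference was not tested. The vector carried the *MLL-AF9* reading frame ahead of an internal ribosome entry site and YFP, so its transcripts end in vector sequence, and whether any of them were counted as *Kmt2a* or *Mllt3* was not tested.

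**Figure D2:**
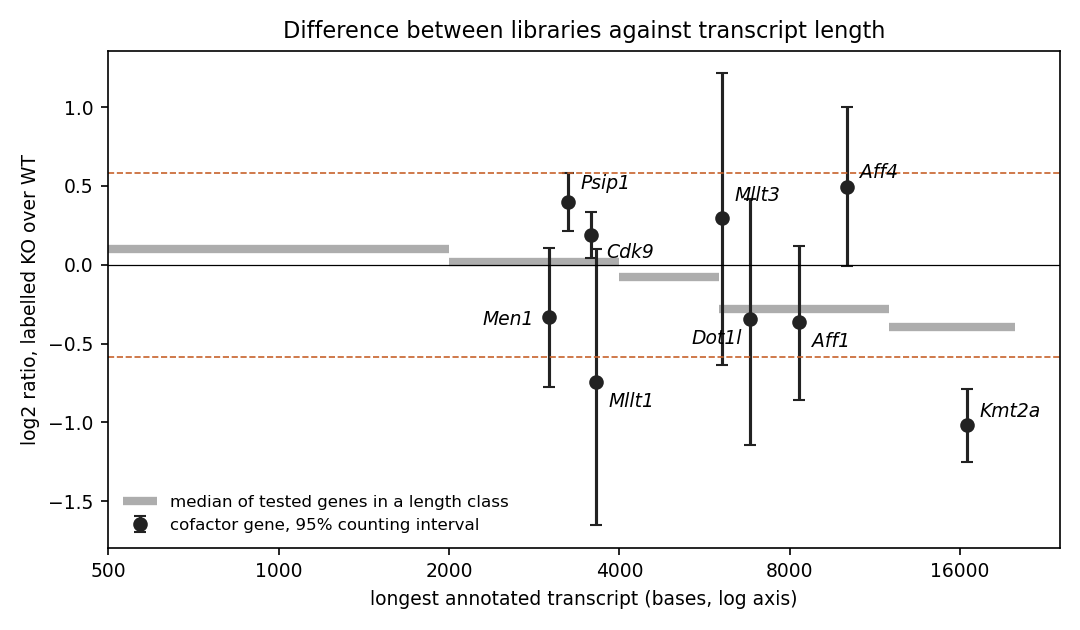
Log2 ratio (library labelled KO over library labelled WT) of each of the 9 genes against the length of its longest annotated transcript in bases (log axis), with 95% counting intervals; dashed lines mark 1.5-fold and grey bars the median of all tested genes in each length class, the last of which is open-ended. Class medians go from 0.10 for the shortest to -0.40 for the longest, *Kmt2a* lies below its class at -1.02, and *Aff4*, also long, lies above its class at 0.50.

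Cells were grouped into 12 clusters from 779 variable genes, with the 9 genes and the related pathway genes left out of the clustering. *Kmt2a* was lower in KO in 12 of 12 clusters, with log2 ratios from -2.46 to -0.31, and in 8 of them the interval lay below 0. Cluster 8, led by the replication genes *Ccne2*, *Rrm2* and *Tyms* and the granulocyte markers *Camp* and *Ngp*, had the largest difference. There *Kmt2a* was at 53.4 CPM in WT and 9.67 in KO. The smallest was in cluster 2, granulocyte-like with *Ltf*, *Mmp9* and *Ly6g*, at 45.6 and 36.8. Within WT the *Kmt2a* level ranged over clusters from 45.3 to 146, and the highest rested on 10 UMIs. Reweighting both libraries to the same cluster shares gave a log2 ratio of -1.08, about as large a difference at an equal mix of clusters.

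**Figure D3:**
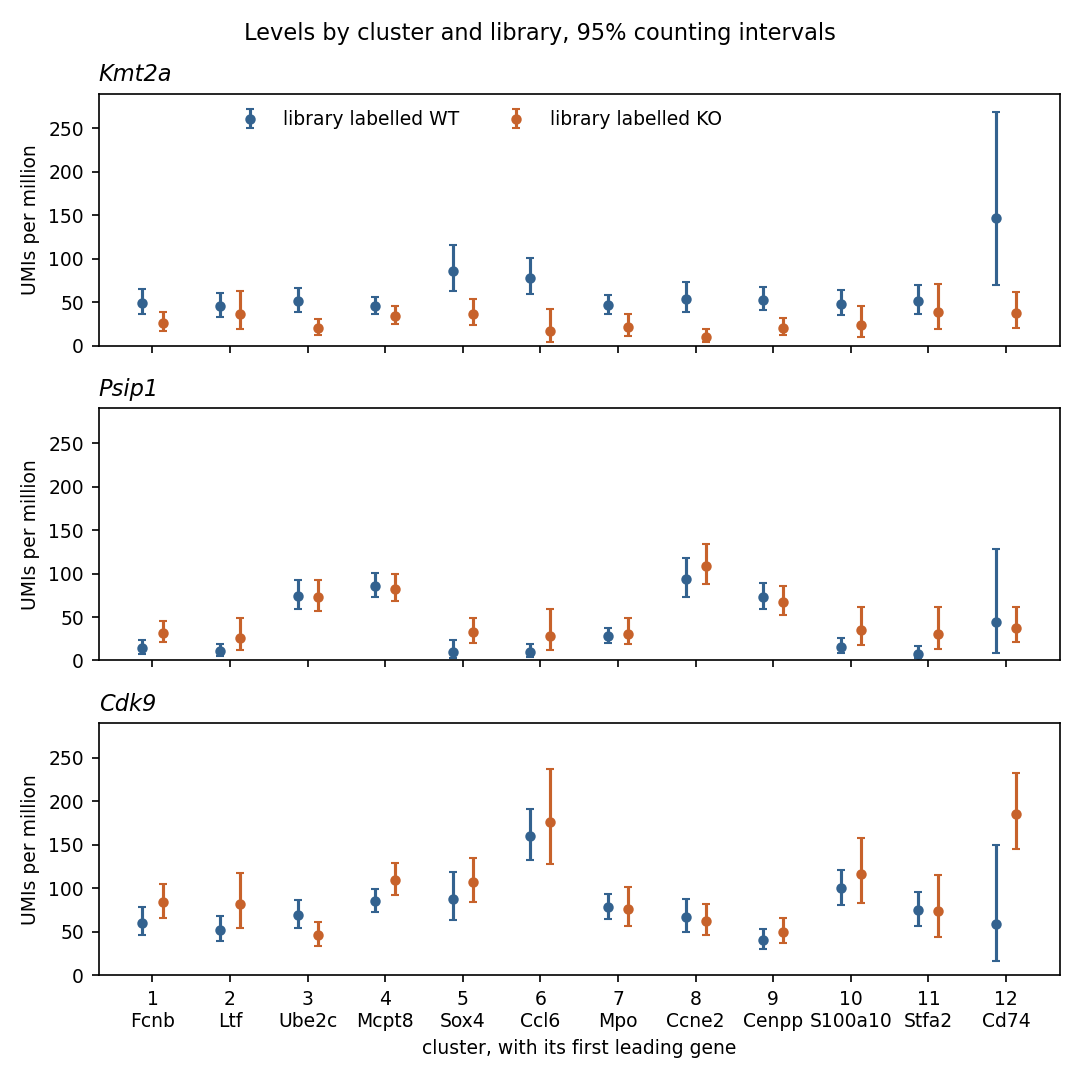
Levels of *Kmt2a*, *Psip1* and *Cdk9* in CPM by cluster (each with its first leading gene) in WT (blue) and KO (orange), with 95% Poisson intervals. *Kmt2a* is lower in KO in all 12 clusters; *Psip1* is highest in clusters 3, 4, 8 and 9 in both libraries; *Cdk9* is high in cluster 6 in both libraries and in cluster 12 in KO.

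Of the proteins that hold MLL on chromatin, LEDGF (*Psip1*, chromosome 4, 83455680 to 83486459, minus strand) differed between the libraries and menin (*Men1*, chromosome 19, 6334979 to 6340891, plus strand) did not beyond counting error. *Psip1* had 511 UMIs in WT and 457 in KO, or 43.8 (40.1 to 47.8) and 57.7 (52.5 to 63.2) CPM, a log2 ratio of 0.40 (0.21 to 0.58). After thinning it was found in 3.21% and 5.04% of cells, and its log2 ratio was 0.61. At equal cluster shares the log2 ratio was 0.23, and with cells matched for UMI total it reached 0.73. Its last exon overlaps *Snapc3* on the opposite strand, so reads of that gene may be counted with it if strand was not used. *Men1* had 126 and 68 UMIs, or 10.8 and 8.59 CPM, a log2 ratio of -0.33 (-0.78 to 0.11).

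The *Psip1* level was high in the clusters with high S phase gene levels. It was 70.6 to 101.45 CPM in clusters 3 and 9, led by mitosis genes such as *Ube2c* and *Aurkb*, in cluster 8, led by replication genes, and in cluster 4, led by *Mcpt8*, *Nras* and *Prg2*. In the other 8 clusters it was 13.5 to 38.0. With both libraries pooled, the *Psip1* level and the summed level of 13 S phase genes had a Pearson r of 0.93 over 12 clusters. The Spearman rho was 0.83. The clusters share libraries, and the S phase genes helped to form them. With the 14 mitosis genes the r was 0.64 and the rho 0.80. *Kmt2a* did not share this pattern. With both libraries pooled, it had an r of -0.68 and a rho of -0.80 with the S phase genes. With the mitosis genes its r was -0.46 and its rho -0.71. These pooled levels depend on the mix of libraries too, since *Kmt2a* was lower in KO. The 3 clusters led by mitosis or S phase genes held 836 WT and 1051 KO cells. In them *Kmt2a* was at 52.3 CPM in WT and 17.1 in KO. In all others, cluster 4 among them, it was at 52.8 and 30.7. The WT intervals of these groups overlap (44.6 to 60.9 and 48.1 to 58.0). The KO intervals (12.6 to 22.8 and 26.1 to 35.9) do not.

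The higher *Psip1* level in KO lay in the clusters where the gene was low. In the 3 clusters led by mitosis or S phase genes it was 78.3 (68.8 to 88.7) CPM in WT and 81.9 (71.6 to 93.3) in KO, a log2 ratio of 0.07 (-0.20 to 0.33). In cluster 4 it was 86.2 and 82.6, a log2 ratio of -0.06 (-0.43 to 0.30). In the other 8 clusters it was 15.9 (12.99 to 19.2) and 31.8 (26.4 to 37.9), a log2 ratio of 1.001 (0.61 to 1.39). Taken singly, 3 clusters (1, 5 and 11) had an interval above 0. Cluster 7 had a log2 ratio of 0.16 (-0.70 to 0.96) and cluster 12 of -0.24 (-2.07 to 2.19). The 8 KO levels lay between 25.5 and 37.0 whatever the cluster's leading genes, while the 8 WT levels ran from 7.72 to 43.9. In the same 8 clusters the 13 S phase genes summed to 562 CPM in WT and 692 in KO and were higher in KO in 7 clusters. The 14 mitosis genes summed to 309 and 413. The 11 granulocyte genes summed to 80469 and 63483, but were higher in KO in 5 of the 8 clusters and lower in 3. Cluster shares differed too. Clusters 2 and 11, where granulocyte genes were highest, held 13.2% and 9.21% of WT cells and 6.23% and 3.70% of KO cells. The part of these differences in that of *Psip1*, and the part of free RNA taken up in droplets, was not tested. The difference between the ratios of the cluster groups has no replicate. The groups follow the pooled level of *Psip1* itself, so the split is not independent of its values.

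**Figure D4:**
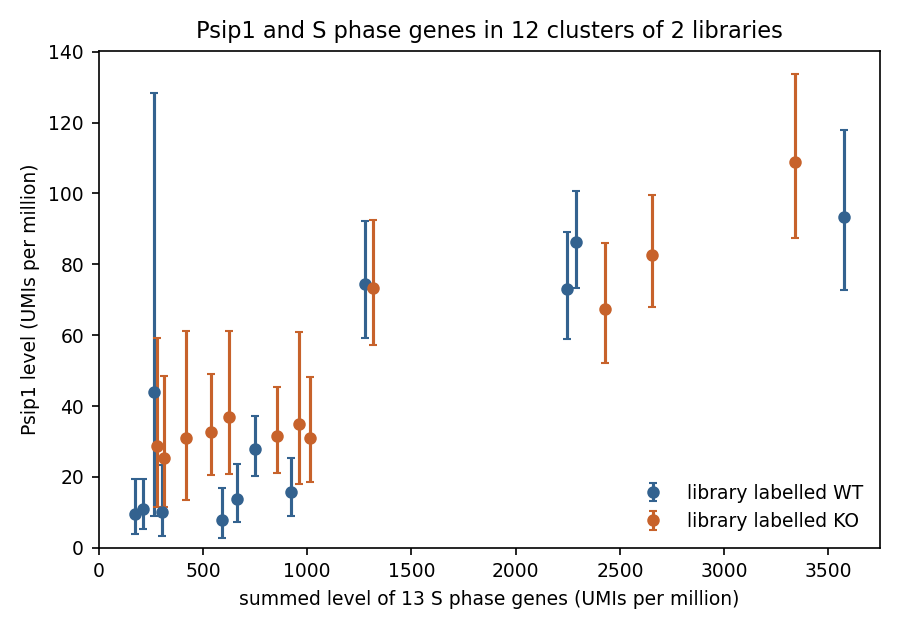
*Psip1* level against the summed level of 13 S phase genes, both in CPM, for each of 12 clusters in WT (blue) and KO (orange), with 95% Poisson intervals on *Psip1*. At S phase levels above those of the other 8 clusters the libraries lie together between 67.4 and 109, and below them KO lies between 25.5 and 37.0, above most WT points.

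The YEATS domain proteins AF9 and ENL read acetylated and crotonylated histone H3 and link it to DOT1L and to elongation. Both genes were near the limit of detection. *Mllt3*, whose product is the partner in the fusion of these leukemias (chromosome 4, 87769925 to 88033364, minus strand), had 24 UMIs in 11 WT cells and 20 UMIs in 12 KO cells, or 2.06 and 2.53 CPM. *Mllt1* (chromosome 17, 56892611 to 56935415, minus strand) had 42 UMIs in 26 WT cells and 17 UMIs in 17 KO cells, or 3.60 and 2.15 CPM. The log2 ratios were 0.30 (-0.64 to 1.21) for *Mllt3* and -0.75 (-1.65 to 0.10) for *Mllt1*. A single WT cell of 5362 UMIs held 16 of the 42 *Mllt1* UMIs, and without it the log2 ratio was -0.05 (-1.03 to 0.88), an alternative added after the cell was seen. *Mllt1* made up 63.6% (50.9 to 75.1) of the UMIs of this pair in WT and 45.9% (29.5 to 63.1) in KO, shares whose intervals overlap.

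Cells with *Mllt3* held erythroid transcripts more often than the others: 12 of the 23 cells had a UMI of an erythroid marker, against 7.55% of the rest. Cluster 12, led by *Cd74*, *H2-Aa* and *Hbb-bs* and left unnamed, held 21 of the 44 *Mllt3* UMIs in 5 of its 368 cells, and cluster 4 held 13 in 9 cells. In 5 clusters (2, 3, 5, 6 and 11) the count was 0 in both libraries, which at up to 3 counts in each library allows levels of up to 2.69 to 12.3 CPM. In these 23 cells the 8 erythroid markers summed to 69331 CPM, against 76.2 in all other kept cells. The globin gene *Hbb-bs* was found in 10 of these 23 cells and in 1.20% of the others. *Klf1*, an erythroid transcription factor, was found in 4 of them and in 0.19% of the others, and the megakaryocyte gene *Pf4* in 4 and 0.50%. These cells were also deeper, with a median of 4284 UMIs against 2191. This comparison was chosen after the cluster values were seen. Without every cell that held an erythroid or megakaryocyte marker UMI, *Mllt1* made up 87.0% of the pair in WT and 75.0% in KO.

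*Dot1l*, which encodes the histone H3 methyltransferase recruited by AF9 and ENL (chromosome 10, 80755206 to 80795461, plus strand), had 43 UMIs in WT and 23 in KO, or 3.68 and 2.90 CPM. Its log2 ratio of -0.34 (-1.14 to 0.42) left a difference in either direction within counting error. It was detected in 0.96% of WT and 0.62% of KO cells, and no cell held more than 2 of its UMIs.

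Among the elongation genes, *Cdk9* was the most counted. *Cdk9* (chromosome 2, 32705784 to 32713076, minus strand) had 900 and 696 UMIs, or 77.1 (72.2 to 82.3) and 87.9 (81.5 to 94.7) CPM, a log2 ratio of 0.19 (0.04 to 0.33), a difference of 1.14-fold. At own depth fewer KO cells held a *Cdk9* UMI (15.1% against 18.2%), and after thinning the shares were 7.97% (7.07 to 8.94) and 7.32% (6.51 to 8.19), so the order of the shares changed at equal depth. Over clusters *Cdk9* varied more than between the libraries. It was 164 (140 to 191) CPM in cluster 6, led by *Ccl6*, *Apoe* and *Fn1*, and 167 (132 to 208) in cluster 12, against 44.8 (36.5 to 54.5) in cluster 9, led by mitosis genes. The cluster 6 level was high in both libraries, at 160 in WT and 176 in KO, while the cluster 12 level came from 75 UMIs in KO and 4 in WT. Cluster 12 held 9.14% of KO cells and 1.14% of WT cells, and without it the *Cdk9* log2 ratio was 0.10 (-0.05 to 0.25). The interval also included 0 after thinning (-0.10 to 0.36), with matched UMI totals (-0.12 to 0.22) and at a filter of 1000 genes per cell (-0.06 to 0.34).

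The scaffold genes *Aff4* (chromosome 11, 53350833 to 53421830, plus strand) and *Aff1* (chromosome 5, 103692374 to 103855322, plus strand) had opposite signs, neither beyond counting error over all kept cells. *Aff4* had 70 and 67 UMIs, or 6.00 and 8.46 CPM, a log2 ratio of 0.50 (-0.01 to 1.0002). *Aff1* had 106 and 56 UMIs, or 9.08 and 7.07 CPM, a log2 ratio of -0.36 (-0.86 to 0.12). *Aff4* made up 39.8% (32.5 to 47.4) of the UMIs of the pair in WT and 54.5% (45.2 to 63.5) in KO. The intervals of these shares overlap between 45.2% and 47.4%. In cells with 1000 or more genes the KO share was 41.5%, close to that of WT.

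Few cells held UMIs of more than 1 of the 9 genes. At own depth 39.3% of WT and 31.3% of KO cells held a UMI of any of them, and 1.42% and 0.28% held 3 or more of the genes. After thinning, the first shares were 17.3% (16.2 to 18.6) and 16.8% (15.6 to 18.1), whose intervals overlap. *Kmt2a* and *Cdk9* were together in 103 WT and 22 KO cells at own depth and in 16 and 8 thinned cells, the most frequent pair in WT. *Psip1* and *Cdk9* were together in 97 and 59 cells, and in 6 and 16 thinned cells, the most frequent pair in KO. The pair *Mllt3* and *Mllt1* was in 0 cells of either library, as was *Mllt3* with *Dot1l*.

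**Figure D5:**
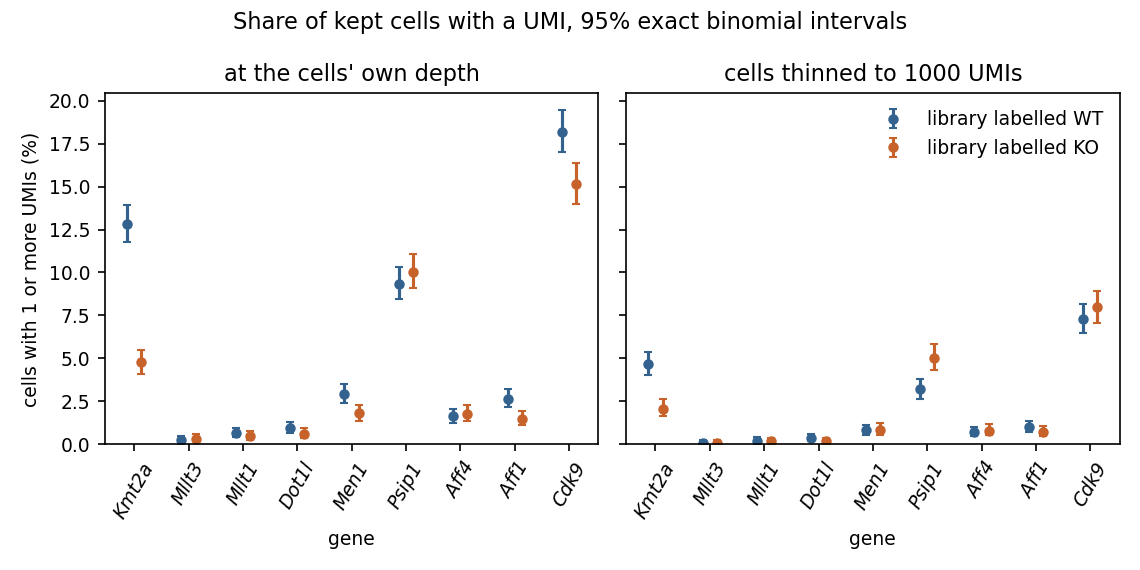
Percent of kept cells with 1 or more UMIs of each of the 9 genes in WT (blue) and KO (orange), at the cells' own depth and after thinning each cell to 1000 UMIs, with 95% exact binomial intervals. *Kmt2a* is lower in KO in both panels (4.68% and 2.09% after thinning), *Psip1* is higher in KO after thinning (3.21% and 5.04%), and the *Cdk9* shares change order.

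With both libraries pooled, the summed level of the 9 genes varied 2.57-fold over clusters, from 142 CPM in the granulocyte-like cluster 2 to 366 in cluster 12. Within WT it ran from 134 in cluster 2 to 497 in cluster 12, which rested on 34 UMIs, and within KO from 153 in cluster 7, primary granule progenitor-like, to 343 in cluster 12. It was lower in KO in 8 of 12 clusters. The interval of the ratio lay below 0 in 1 of them, cluster 3. For *Cdk9*, the only one of the 9 genes with over 1000 UMIs, the genes with the most similar levels over the 24 profiles of cluster and library were *Ctage5*, *Ggh* and *Sh3glb1*, with Pearson r of 0.85, 0.82 and 0.81 among 2612 genes. The profiles share 2 libraries.

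MLL works with a core that includes WDR5, RBBP5, ASH2L and DPY30. Of the 15 genes of the MLL complexes and related methyltransferases, 10 had 100 UMIs. Of these 10, 2 were 1.5-fold or more lower in KO and 0 higher, beside 9.9% and 5.43% of all tested genes. The median log2 ratio of the 10 was -0.04 beside -0.0018 over all tested genes. The 2 lower genes were *Hcfc1*, encoding a chromatin adaptor of MLL, at 21.6 and 10.2 CPM (log2 ratio -1.08, -1.46 to -0.71), and *Rbbp5* at 8.23 and 5.05 (-0.70, -1.27 to -0.16). *Dpy30*, the most counted, was at 173 and 216 (0.32, 0.23 to 0.42). The other MLL family methyltransferase genes *Kmt2b*, *Kmt2c* and *Kmt2d* had log2 ratios from -0.32 to -0.16, each with an interval that included 0.

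Of the 14 genes of the super elongation complex and of the CDK9 partners, 8 had 100 UMIs. Of these 8, 0 were past 1.5-fold, beside 9.9% lower and 5.43% higher over all tested genes. The median log2 ratio of the 8 was 0.01. *Larp7*, which helps to hold inactive CDK9 in a particle with a small RNA, was the most counted, at 36.5 and 49.5 CPM (0.44, 0.24 to 0.64). Of the 6 DOT1L partners, 4 had 100 UMIs and 0 of these were past 1.5-fold. Their median was -0.49. *Skp1a*, the most counted, was at 140 CPM in both libraries. The other 3, *Mllt10* (-0.57, -0.79 to -0.35), *Bcor* (-0.53, -0.98 to -0.09) and *Cbx8* (-0.45, -0.82 to -0.08), had intervals below 0. After thinning the interval of *Cbx8* included 0 (-0.22, -0.80 to 0.35), and those of *Mllt10* and *Bcor* stayed below 0. Summed, the 6 genes had a log2 ratio of -0.17 (-0.27 to -0.08). In the PAF1 elongation complex, 1 of 6 genes was lower, *Ctr9* (19.2 and 11.4 CPM, log2 ratio -0.76, -1.13 to -0.40), and *Wdr61*, the most counted, was at 82.5 and 110 (0.41, 0.28 to 0.55). Of 7 pause factors, *Supt6* was lower (-0.63) and *Nelfa* higher (0.68, 0.47 to 0.88), and *Supt4a* had the most UMIs, at 195 and 240 CPM.

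Of 15 genes commonly activated by MLL fusions, 14 had 100 UMIs. Of these 14, 1 was 1.5-fold lower in KO and 0 were higher, beside 9.9% and 5.43% of all tested genes. The median log2 ratio of the 14 was -0.16. The lower gene was *Jmjd1c*, a histone demethylase family member, at 46.4 and 26.8 CPM (-0.79, -1.03 to -0.56). *Hoxa9*, a homeobox gene that sustains these leukemias, was just inside the threshold at 179 and 120 (-0.58, -0.69 to -0.47). After thinning its log2 ratio was -0.40 (-0.59 to -0.22), farther inside. *Mef2c* had the most UMIs, at 325 and 403 CPM (0.31, 0.24 to 0.38). Summed, the 15 genes were at 1195 and 1142 CPM, a log2 ratio of -0.07 (-0.10 to -0.03).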

How the data were processed

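The 2 libraries were prepared with 10X Genomics 3′ chemistry and sequenced by the authors. The deposited values are UMI counts per gene and cell, made per the labels with Cell Ranger 1.3.1 on mm10, without normalization, in 1 matrix of both libraries. The barcode suffix separates the libraries, and its genotype was taken from the labels and the code the study published. Cells with 500 or more genes were kept. Counts were summed per library and divided by the library total (CPM). Log2 ratios have exact binomial intervals, levels exact Poisson intervals and shares Clopper-Pearson intervals, all at 95%. Reads sharing a UMI count once, and the intervals cover counting error only. The shares of cells with a UMI hold an unknown part from free RNA, since no cell type here is sure to lack these genes. For thinning, 1000 UMIs were drawn without replacement from each cell, which left out 66 WT and 194 KO kept cells with fewer.

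No doublet caller was run; leaving out the 5% of cells with most UMIs was an alternative. Clusters came from k-means (12 clusters, 20 principal components, 10 starts) on 779 genes, the 500 most variable of each library. A cluster was called by a cell type when 3 or more of its markers were raised 1.5-fold and 2 or more were among its 10 leading genes. Cluster 4 met this for mast cell or basophil with *Mcpt8* and *Cpa3*, but *Nras*, *Hras* and *Psat1* also led it, and it is given by its number. The clusters differ from any naming in the study.

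The 9 genes, all lists and markers were chosen with earlier results of these data known. All 9 genes were named. From each pathway list the genes past 1.5-fold with 100 or more UMIs and the most counted gene were named. The genes named beyond these (*Kmt2b*, *Kmt2c*, *Kmt2d*, *Mllt10*, *Bcor*, *Cbx8* and *Hoxa9*) were chosen after their values were seen. For genes with 1000 or more UMIs, the 3 most similar were named by Pearson r of log2 (CPM + 10). Transcript lengths came from GENCODE and promoters from RefSeq. Python 3.11.15, scipy 1.17.1 and scikit-learn 1.9.0 were used. The ratio and thinning steps were tested on simulated data.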

Additional observations from a re-analysis of the deposited data

Results flagged for a closer look

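In the cells left out for having under 500 genes, the 9 genes summed to 240.5 CPM in the library labelled KO (160 UMIs in 695 cells, 205 to 281), above the 130 in the library labelled WT (29 UMIs in 203 cells, 87.1 to 187). *Cdk9* was at 118.8 in these KO cells (79 UMIs, 94.03 to 148) and at 40.3 in these WT cells (9 UMIs, 18.4 to 76.6). In the results these cells entered only the alternative that used every deposited cell. No outlier check was possible with 1 library per genotype.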

How the results depend on the processing

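With 1 library per genotype, no library could be left out. No paired analysis was possible because the result comes from no test and each genotype had 1 library. *Kmt2a* was lower in KO under all 11 alternatives (log2 ratio -1.22 to -0.93), and *Psip1* was higher (0.23 to 0.73). *Cdk9* ratios were above 0 (0.05 to 0.26), with intervals that included 0 under 4 alternatives. The ratios of *Mllt3* (-1.46 to 1.56), *Mllt1*, *Dot1l*, *Men1* and *Aff4* changed sign under at least 1; *Aff1* stayed below 0. Of the 9 genes, 2 were 1.5-fold or more apart, against 4 after thinning. Without the 5% of cells with most UMIs it was 5, and without the 10 cells with most UMIs of each gene 4. Of all tested genes, 9.9% were lower and 5.43% higher, and 9.15% and 7.48% after thinning. No such share was computed without the highest cells. The counts of the 9 genes include *Mllt3*, *Mllt1* and *Dot1l*, which had too few UMIs for these shares. The share of cells with a UMI of any of the genes was 39.3% in WT and 31.3% in KO, against 50.9% and 44.4% in cells with 1000 or more genes, 17.3% and 16.8% after thinning, 32.9% and 33.6% in cells matched on total UMIs, and 37.4% and 29.4% without the 5% of cells with most UMIs; it was 29.0% in KO over every deposited cell. The *Mllt1* share of *Mllt1* and *Mllt3* was 50% in WT in matched cells, 94.1% (WT) and 77.8% (KO) without the 10 highest cells, 80.8% (WT) without cluster 12, 87.0% (WT) and 75% (KO) without cells with an erythroid or megakaryocyte marker, and 66.7% (KO) without the 5% of cells with most UMIs. The *Aff4* share in KO was 41.5% in cells with 1000 or more genes. The highest cluster level over the lowest was 1.72 with 8 clusters and 1.91 from another start, against 2.57. Of genes with 500 or more UMIs, 4.98% were 1.5-fold lower in KO, against 9.9%. In all, 76 of 99 values that answer a comparison stayed within the counting interval or, for counts of genes and percents of genes, within 1.5 times; the causes of the others were not tested. The alternatives without cluster 12, without marker-positive cells and without 1 cell for *Mllt1* were chosen after seeing the data. Depth limits *Mllt3*, *Mllt1* and *Dot1l* most.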
